A study of Canis lupus familiaris with 6 samples.

Results

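Gene expression at mandibular bone sites filled with beta-TCP was compared between day 14 and day 7 of healing in beagle dogs aged 9 years. The comparison uses 2 of the 6 arrays of the study, chosen by their labels: the implanted site on day 14 and the implanted site on day 7. Per the labels' protocols, premolars had been extracted and the mandibles had healed for 3 months before holes 4.5 mm wide and 8 mm long were drilled. The holes were implanted with beta-TCP or left without it (control), cylinders of the same size were taken on days 4, 7 and 14, and biotin-labelled RNA prepared from total RNA (100 ng) was hybridised to a canine array by Affymetrix. Every site, control sites included, thus carried the extraction and the drill wound. Each of the 6 groups (beta-TCP and control on 3 days) holds 1 array, so no difference given here has an error or a p-value, and "higher" and "lower" refer to these arrays. The sources used here give neither the number of dogs nor which cylinders shared a dog.

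Beta-TCP (beta-tricalcium phosphate) is a ceramic bone substitute that serves as a scaffold and is slowly resorbed. A drilled hole in bone first fills with clot and inflammatory cells, then with granulation tissue rich in fibroblasts and vessels, and then with woven bone laid down by osteoblasts and remodelled by osteoclasts. The weeks between inflammation and woven bone are the period in which collagen synthesis, matrix mineralization and the clearing of inflammatory cells overlap.

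Levels are given as multiples of the median of all probe sets on the same array ("array medians"), and differences as log2(level + 1) on day 14 minus the same on day 7, so that 1 stands for a 2-fold change of a well expressed gene. Probe sets come in 2 kinds by name, Cfa and CfaAffx, and each gene was read on the probe set of each kind with the highest mean. Levels of different probe sets are not comparable with each other. A mean at or above the 40th percentile was reached by 5989 genes on Cfa and by 8289 on CfaAffx probe sets. Together they make 10530 genes, and 3748 were read on both kinds.

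The day 14 array of the implanted site stood apart from the rest. Its Spearman correlation over all probe sets was 0.763 with the day 7 array of the implanted site, and it lay between 0.723 and 0.779 with each of the other 5 arrays, which correlated with one another at 0.832 to 0.905. Both day 14 arrays were deposited on another scale than the arrays of days 4 and 7, so the day and the deposited processing cannot be told apart. The kinds of probe set also went separate ways. Across the 3748 genes read on both, the beta-TCP difference on Cfa and on CfaAffx probe sets had a Pearson correlation of 0.182, against 0.562 for the control difference between the same days and 0.642 for the beta-TCP difference between days 7 and 4. These correlations are across genes of the same arrays and carry no p. The CfaAffx level sat further below the Cfa level of the same gene on day 14 (median -1.84 log2) than on day 7 (-1.16) at the implanted site, against -1.45 and -1.33 at the control site. Most results below therefore name the kind they were read on, and differences of the same sign on both kinds are pointed out. A single value given without a kind is that of 1 probe set. Of 618 genes listed or named here, 135 had kept probe sets on both sides of 0; where a gene has several of a kind, the brightest is given.

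**Figure D1:**
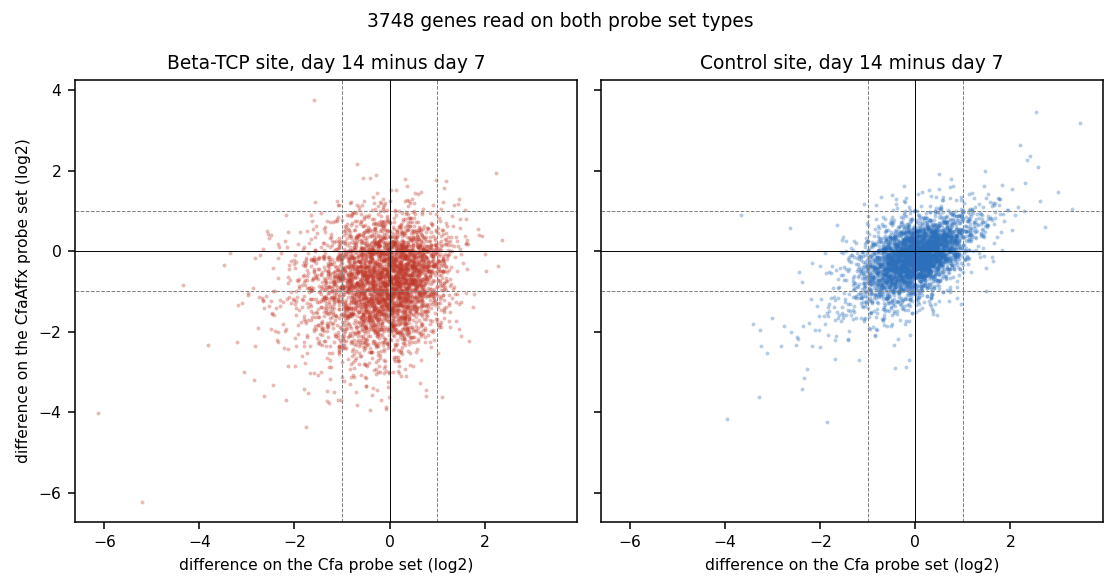
Difference between day 14 and day 7 (log2) of 3748 genes, on the Cfa probe set (horizontal axis) and on the CfaAffx probe set (vertical axis), for the beta-TCP site (left) and the control site (right). Each point is 1 gene, and dashed lines mark 2-fold. The beta-TCP points form a broad cloud below 0 on the vertical axis (r = 0.182), while the control points follow the diagonal more closely (r = 0.562).

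More genes were lower than higher on day 14. On Cfa probe sets 812 genes (13.6%) were at least 2-fold lower and 329 (5.49%) at least 2-fold higher. CfaAffx probe sets gave 2342 lower (28.3%) and 249 higher (3.00%). The counts of every gene list below are to be read beside these shares of all kept genes. On both kinds together, 246 of the 3748 genes (6.56%) were at least 2-fold lower and 9 (0.240%) at least 2-fold higher. Calls of opposite sign were made for 41 genes higher on Cfa and lower on CfaAffx, and for 5 the other way. At the control site the same days gave 350 lower (5.84%) and 279 higher (4.66%) on Cfa, 577 lower (6.96%) and 252 higher (3.04%) on CfaAffx, and 99 lower (2.64%) and 41 higher (1.09%) on both.

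The split between lower and higher depended on the scaling. The median difference of all kept genes was -0.09 on Cfa and -0.49 on CfaAffx probe sets. Relative to these medians, 679 genes were lower and 425 higher on Cfa, and 1134 lower and 908 higher on CfaAffx. With quantile normalization the medians moved to 0.18 on Cfa and -0.28 on CfaAffx, and the counts to 531 lower and 758 higher on Cfa. Division by the 90th percentile gave medians of 0.24 and -0.23, with 485 lower and 836 higher on Cfa. The excess of lower genes on Cfa was thus turned round by these scalings, whereas CfaAffx kept more lower than higher genes under each scaling (1772 against 481 with quantile normalization, 1666 against 517 with the 90th percentile). On CfaAffx the median difference also went down with expression, being -0.04, -0.31, -0.69 and -0.96 in 4 bins of genes ordered from low to high mean; the Cfa medians stayed between -0.04 and -0.13. Which of the differences belongs to the tissue and which to the array was not tested.

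Ranked by the smaller of the 2 differences, the gene lowest on both kinds was SLPI, the secreted inhibitor of neutrophil elastase. On its Cfa probe set SLPI lay at 10.9 array medians on day 14 and 436 on day 7, and on its CfaAffx probe set at 4.84 on day 14 and 435 on day 7, differences of -5.21 and -6.22. On day 4 it had been at 208 on Cfa, so the low level appeared only on the last of the 3 implanted arrays. DLA88, the polymorphic heavy chain of the dog's classical MHC class I, stood at 1.05 on day 14 and 143 on day 7 on Cfa (-6.13). On CfaAffx DLA88 stood at 0.258 and 19.3 (-4.01). DLA-64 and DLA-79, other class I genes, each differed by only -0.27 on the 1 probe set kept for each. The control site kept DLA88 high on its Cfa probe set (708 on day 14 and 516 on day 7) but not on CfaAffx (12 and 38.0), and SLPI there was lower on day 14 as well (-1.53 on Cfa and -1.66 on CfaAffx).

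Of the other 10 genes named by this rank, 4 were also at least 2-fold lower on both kinds at the control site. S100A14, an epithelial calcium-binding protein of the S100 family, differed by -3.05 on Cfa and -2.99 on CfaAffx. SOD2, the mitochondrial superoxide dismutase induced by inflammatory signals, differed by -2.64 and -3.59. SORL1, a sorting receptor that leukocytes also express, differed by -3.82 and -2.34, and GK, glycerol kinase, by -3.20 and -2.27. At the control site S100A14 differed by -2.01 and -2.37, SOD2 by -2.03 and -1.95, SORL1 by -1.84 and -2.08, and GK by -1.89 and -1.80.

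The other 6 were not 2-fold lower on both kinds at the control site. COL6A1, a chain of collagen VI, lay at 1.63 array medians on day 14 and 17.7 on day 7 on Cfa, and at 0.258 and 5.39 on CfaAffx. The control site had 18 and 13.2 on Cfa, and 4.26 and 4.77 on CfaAffx. FSTL1, a secreted glycoprotein of mesenchymal cells, differed by -2.18 on Cfa and -3.70 on CfaAffx at the implanted site and by -0.51 and 0.77 at the control site. HPRT1, a purine salvage enzyme often used as a reference gene, differed by -2.46 and -3.32, against -0.30 and 0.07 at the control site. PTPRF, a receptor tyrosine phosphatase, CMTM6, which stabilises membrane proteins, and CHURC1 differed by -2.20 to -2.40 on both kinds. Without beta-TCP, CHURC1 differed by 0.76 and 0.53 and CMTM6 by -0.39 and -1.56.

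Of the genes at least 2-fold higher on both kinds, CAMP led with differences of 2.24 on Cfa and 1.95 on CfaAffx. It encodes the antimicrobial peptide cathelicidin, stored in neutrophil granules. CAMP lay at 1.20, 0.962 and 8.26 array medians on days 4, 7 and 14 at the implanted site (Cfa), and at 1.27 on day 14 and 0.700 on day 7 at the control site. COMP, a matrix protein of cartilage and tendon, stood at 11.6 on day 14 and 3.93 on day 7 on Cfa (1.36) and at 3.26 and 0.931 on CfaAffx (1.14), against control differences of -0.67 and -0.69. The other named members of this set were MTARC2, a mitochondrial reductase (1.46 and 1.30), AQP3, a water and glycerol channel (1.19 and 1.74), and NR4A1, an orphan nuclear receptor (1.43 and 1.17). CSTB, the cathepsin inhibitor cystatin B (1.58 and 1.03), MITF, a transcription factor active in osteoclasts and pigment cells (1.12 and 1.22), and CFL1, the actin-severing protein cofilin (1.08 and 1.03), followed, and the ninth gene has only an identifier. Of 4 probe sets of MITF, 1 lay below 0 (-0.80). Of these, MTARC2 was also 2-fold higher on both kinds at the control site (2.29 and 1.0).

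**Figure D2:**
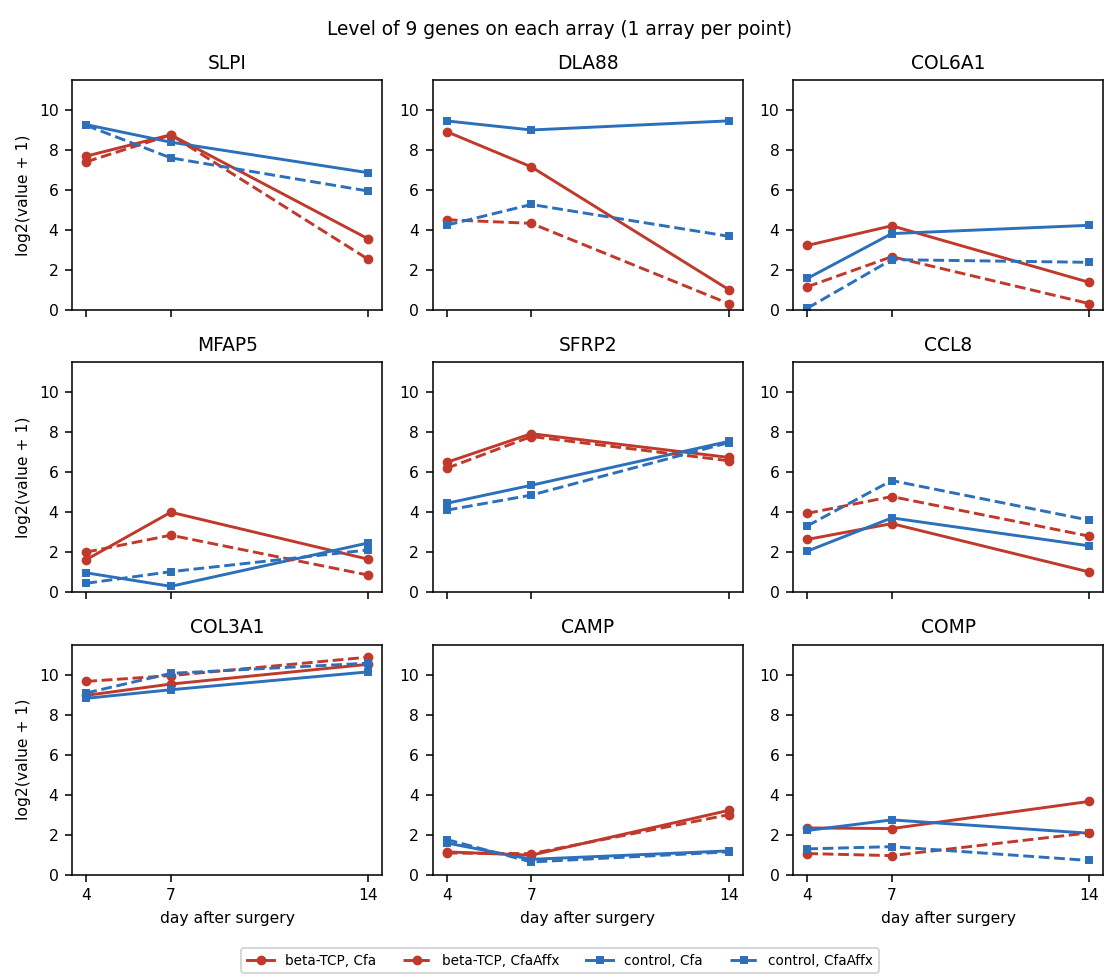
Level of 9 genes as log2(value + 1), with the value in array medians, by day after surgery (4, 7 and 14), 1 array per point. Red circles are the beta-TCP site and blue squares the control site, solid lines Cfa and dashed lines CfaAffx probe sets. SLPI, DLA88 and COL6A1 end low at the implanted site, CAMP and COMP end high there, and MFAP5 and SFRP2 run in opposite directions at the implanted and control sites between day 7 and day 14.

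Bone-forming genes gave a mixed picture that depended on the kind of probe set. Osteoblasts secrete collagen I together with the mineral-binding proteins that follow it, and osteocytes are osteoblasts buried in the matrix they made. Of 22 osteoblast and bone matrix genes listed, 20 had a probe set. On Cfa 3 of 12 kept members were at least 2-fold higher and 1 lower (median 0.08, against -0.09 for all kept genes), and on CfaAffx 0 of 14 were higher and 7 lower (median -0.91, against -0.49). The Cfa median changed sign with quantile normalization (-0.04).

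The 3 higher members were COL1A1 and COL1A2, the chains of collagen I, and SPARC, the collagen-binding osteonectin. COL1A1 stood at 2521 array medians on day 14 and 881 on day 7 (1.52), COL1A2 at 1925 and 797 (1.27) and SPARC at 1538 and 719.6 (1.09). These levels lay near the top of each array, and the top itself differed, at 2795 on day 14 and 989.7 on day 7, a difference of 1.5. With quantile normalization, which gives all arrays the same top, COL1A1 stood at 0, COL1A2 at -0.20 and SPARC at -0.24. The other 2 Cfa probe sets of COL1A1 differed by -1.25 and -0.47, and the mean over all 3 gave -0.07. Of 4 probe sets of COL1A2, 1 lay below 0 (-1.06) and 3 above, and the mean over all 4 gave 0.80. The CfaAffx probe set of SPARC stood at 15.5 on day 14 and 203 on day 7 (-3.62). Under division by an array value, the higher day 14 reading was thus that of the brightest probe set for COL1A1 and of 3 of 4 for COL1A2.

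Mineralization genes did not move together. ALPL, the alkaline phosphatase that frees phosphate for mineral, lay at 4.40 array medians on day 14 and 8.86 on day 7 on Cfa (-0.87) and at 26.9 and 40.2 on CfaAffx (-0.56). Control sites had more ALPL on day 14 on both kinds (1.73 and 1.33). On day 14 ALPL lay at 4.40 with beta-TCP and 7.83 without on Cfa, and at 26.9 and 27.1 on CfaAffx. IBSP, the bone sialoprotein that nucleates mineral, was lower on CfaAffx at both sites (-2.66 and, at the control site, -2.0). It stood at 38.7 array medians on day 14 and 251 on day 7 at the implanted site. SPP1, osteopontin, differed by 0.25 on Cfa and -1.93 on CfaAffx. BGLAP, osteocalcin, differed by -0.52 and -0.56, less than 2-fold on either kind.

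Some genes that were low on day 4 were within 2-fold of their day 7 level on day 14. MEPE, a matrix phosphoglycoprotein of osteocytes, lay on CfaAffx at 0.0472, 7.64 and 5.52 array medians on days 4, 7 and 14. The control site had 0.150 on day 14. PHEX, the osteocyte peptidase that restrains phosphate loss, lay on Cfa at 0.709, 5.07 and 8.00. NPY, a neuropeptide, stood on Cfa at 0.304, 49.6 and 55.0 on the same days and under 1 array median on each control array. DMP1, a mineralization protein of osteocytes, differed by -1.37 (0.50 on day 14 and 2.88 on day 7), and SOST, which encodes the Wnt inhibitor sclerostin, differed by 0.20 from a level under 1. PTH1R, the receptor for parathyroid hormone, was lower on day 14 on Cfa (7.02 array medians, against 31.6 on day 7, -2.03).

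Among the matrix genes of this list, OMD, the keratan sulfate proteoglycan osteomodulin, differed by -2.38 and TNN, tenascin N, by -2.59 on CfaAffx. TNN went the other way at the control site (3.81), where it stood at 14.4 array medians on day 14 and 0.0933 on day 7. CDH11, the mesenchymal cadherin, differed on Cfa by 0.17 at the implanted site and 2.01 at the control site. Its other kept probe set differed by -1.61 at the implanted site.

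Transcription factors and BMP targets of the osteoblast lineage gave 0 of 6 higher and 2 lower on Cfa (median -0.54). On CfaAffx 0 of 12 were higher and 4 lower (median -0.88), a count near the 28.3% of all kept genes. The medians of all kept genes were -0.09 on Cfa and -0.49 on CfaAffx, and 13.6% were lower on Cfa. RUNX2, the master regulator of osteoblast commitment, stayed between 0.61 and 2.02 array medians on both days and kinds, with differences of -0.86 and -0.40. BMP2, a bone-inducing ligand, differed by -1.39 on Cfa and -0.12 on CfaAffx, and BMP4 by -1.06 on CfaAffx, against 1.19 at the control site. ID1 and ID3, targets of BMP signalling, differed by -1.37 and -2.73 on CfaAffx, and ID3 by -0.09 on Cfa. Of the Wnt regulators, 2 of 8 on Cfa and 4 of 12 on CfaAffx were lower, against 13.6% and 28.3% of all kept genes, and none was higher on either kind. The Cfa median of -0.20 turned to 0.19 with the 90th percentile, and the CfaAffx median of -0.31 lay above that of all kept genes (-0.49). SFRP2, a secreted Wnt inhibitor of mesenchymal progenitors, was the member lower on both kinds (-1.19 and -1.21), and it was higher on both at the control site (2.19 and 2.62).

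**Figure D3:**
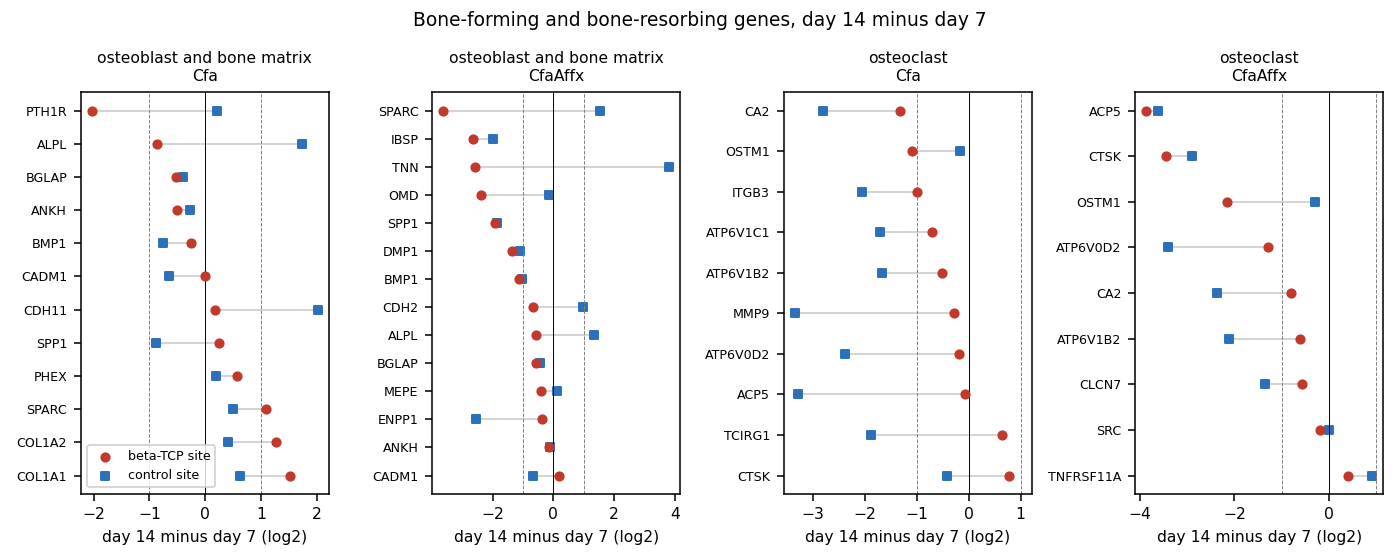
Difference between day 14 and day 7 (log2) of the kept members of the osteoblast and osteoclast lists, by kind of probe set. Red circles are the beta-TCP site, blue squares the control site, and dashed lines mark 2-fold. On Cfa 8 of 10 osteoclast genes lie within 2-fold of 0 at the implanted site and 8 of 10 lie beyond 2-fold below 0 at the control site, whereas ACP5 and CTSK on CfaAffx are low at both sites.

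Osteoclast genes differed less from day 7 at the implanted site than at the control site. Osteoclasts dissolve mineral with acid pumped by a V-ATPase and digest collagen with cathepsin K. On Cfa 2 of 10 kept members were at least 2-fold lower and 0 higher with beta-TCP (median -0.40), against 8 lower and 0 higher at the control site (median -1.97). On CfaAffx 4 of 9 were lower and 0 higher with beta-TCP (median -0.79), against 6 lower and 0 higher at the control site (median -2.11). The Cfa median with beta-TCP was 0.0008 with the 90th percentile, and no test of the difference between sites was possible with 1 array per group.

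ACP5, the tartrate-resistant acid phosphatase, stood at 189.6 array medians on day 14 and 199 on day 7 on Cfa at the implanted site (-0.07), and at 42.9 and 429 at the control site (-3.29). MMP9, the gelatinase of osteoclasts and neutrophils, stood at 197 and 239 at the implanted site (-0.28) and at 73.2 and 758 at the control site (-3.35). On these Cfa probe sets the implanted site kept its day 7 level while the control site did not. The CfaAffx probe set of ACP5, however, was lower at both sites, by -3.87 with beta-TCP and by -3.62 without. CTSK, cathepsin K, likewise differed by 0.78 on Cfa and -3.44 on CfaAffx, against -0.42 and -2.90 at the control site.

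Not every acid-secretion gene had the same course. ATP6V0D2, the pump subunit of osteoclasts, differed by -0.19 on Cfa and -1.30 on CfaAffx at the implanted site, and by -2.39 and -3.41 at the control site. CA2, the carbonic anhydrase that supplies the protons, differed by -1.33 and -0.79, against -2.82 and -2.36. TCIRG1, the pump subunit mutated in osteopetrosis, differed by 0.64 on Cfa, against -1.88. OSTM1, a partner of the lysosomal chloride channel, was lower on both kinds with beta-TCP (-1.09 and -2.17) and differed by -0.16 and -0.28 at the control site.

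The signals that drive osteoclast formation were read on CfaAffx. TNFSF11, encoding the osteoclast differentiation factor RANKL, differed by -1.23 (0.435 array medians on day 14 and 2.38 on day 7), and TNFRSF11B, encoding its decoy receptor osteoprotegerin, by -1.05 (0.113 and 1.30). CSF1R, the receptor for M-CSF, differed by -2.29 on CfaAffx and -0.29 on Cfa. TNFRSF11A, the receptor RANK, differed by 0.40.

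Collagens other than collagen I were lower or within 2-fold. On Cfa 0 of 10 kept members were higher and 3 lower (median -0.04), and on CfaAffx 0 of 12 were higher and 6 lower (median -1.02), against control medians of 0.54 and 0.35. The Cfa median lay above 0 under 3 of the 4 other scalings. Of 9 read on both kinds, COL6A1, COL5A1 and COL12A1 were at least 2-fold lower on both. COL12A1, a fibril-associated collagen, lay at 48.4 array medians on day 14 and 138 on day 7 on Cfa (-1.49) and differed by -2.24 on CfaAffx, against 1.66 and 0.19 at the control site. COL5A1, a chain of the collagen that seeds fibrils, differed by -1.01 and -3.69, against 1.01 and 1.03.

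COL3A1, the collagen of granulation tissue, had the highest differences of this list, 0.99 on Cfa (1465 array medians on day 14 and 738 on day 7) and 0.92 on CfaAffx (1879 and 989.7). The control values of COL3A1 were 0.89 and 0.51, and with quantile normalization the beta-TCP values were -0.33 and -0.48. Its 3 dimmer Cfa probe sets, between 31.5 and 126 array medians, differed by -1.74, -1.0 and -0.27.

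The enzymes that fold and crosslink collagen were lower on CfaAffx. Proteins of the endoplasmic reticulum hydroxylate and chaperone procollagen, and secreted lysyl oxidases start the crosslinks outside the cell. Of 24 listed, 20 had a probe set; 12 of 17 were at least 2-fold lower on CfaAffx (median -2.08) and 2 of 12 on Cfa (median -0.37), with none higher on either kind. Control sites had 0 members 2-fold lower on either kind, and the medians were 0.32 on CfaAffx and 0.41 on Cfa. The CfaAffx median lay between -1.59 and -2.18 under the other scalings, and the Cfa median between -0.01 and -0.28. Of 10 read on both kinds, 8 were below 0 on both.

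SERPINH1, the collagen chaperone HSP47, stood at 0.242 array medians on day 14 and 23.0 on day 7 on Cfa (-4.27), against 19.6 and 10.3 at the control site. FKBP10, a prolyl isomerase that acts with HSP47, stood at 0.113 and 16.2 on CfaAffx (-3.95), against 10.1 and 7.26. P4HA1, a catalytic subunit of collagen prolyl 4-hydroxylase, was the member lower on both kinds, by -1.15 on Cfa and -2.12 on CfaAffx. Its partner subunit P4HB differed by -0.12 on Cfa (247 array medians on day 14 and 269 on day 7) and by -2.90 on CfaAffx (1.19 and 15.4), and PPIB, cyclophilin B, by 0.21 and -2.86. LOX, the lysyl oxidase that starts crosslinks, stood at 0.194 and 7.59 on CfaAffx (-2.85).

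Small proteoglycans and matricellular proteins, which coat collagen fibrils and tune their assembly, followed the same division. On CfaAffx 0 of 21 kept members were higher and 15 lower (median -2.0), and on Cfa 0 of 18 were higher and 2 lower (median -0.24), a median that turned to 0.08 with the 90th percentile. Control sites had 6 members higher on each kind, with medians of 0.65 on CfaAffx and 0.87 on Cfa. ASPN, the leucine-rich proteoglycan asporin, stood at 6.06 array medians on day 14 and 29.5 on day 7 on Cfa (-2.11), against 42.3 and 2.96 at the control site (3.45). OGN, osteoglycin, stood at 2.26 and 29.1 on CfaAffx (-3.21), against 46.6 and 4.59 at the control site (3.09). POSTN, periostin, differed by -1.38 with beta-TCP and 3.21 without, and THBS2, thrombospondin 2, by -0.41 on Cfa and -1.52 on CfaAffx, against 3.47 and 3.17.

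In each of these 4 genes the implanted site had been the higher one on day 7 and was the lower one on day 14. LUM, lumican, differed by 0.94 on Cfa (894 array medians on day 14 and 464 on day 7) and by -2.20 on CfaAffx (133 and 616). FN1, fibronectin, differed by 0.85 on Cfa. Of 4 kept probe sets of FN1, 3 lay above 0 and 1 below (-1.65). CCN2, a connective tissue growth factor, differed by -0.38 on Cfa and -3.56 on CfaAffx.

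Cartilage genes were few. ACAN, the large proteoglycan aggrecan, lay on Cfa at 11.6 array medians on day 14 and 25.8 on day 7 (-1.09). The control site had 17.9 and 4.70 (1.73). CNMD, the cartilage angiogenesis inhibitor chondromodulin (-1.81), and CHAD, chondroadherin (-1.27), were lower on CfaAffx from levels under 5. COMP, described above, was the only kept member read on both kinds.

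Matrix proteases and their inhibitors were lower or within 2-fold. On Cfa 0 of 10 kept members were higher and 4 lower (median -0.51, control -1.41), and on CfaAffx 0 of 12 were higher and 8 lower (median -1.48, control -0.67). MMP13, the collagenase of osteoblasts and hypertrophic cartilage, was lower on both kinds, at 6.61 array medians on day 14 and 22.7 on day 7 on Cfa (-1.64) and at 49.5 and 156 on CfaAffx (-1.63). The control site went further for MMP13, by -3.96 and -4.17. MMP3, stromelysin, differed by -2.65 and MMP1, interstitial collagenase, by -2.39, against -4.23 and -2.85 at the control site. PLAU, urokinase, differed by -2.64 on Cfa, and ADAMTS5, an aggrecan-degrading protease, by -3.17 on CfaAffx. MMP14, the membrane-bound activator of MMP2, differed by -1.39, against 0.51 at the control site.

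Inflammatory cytokines and chemokines formed the list with the clearest lower level on Cfa probe sets. On Cfa 14 of 20 kept members were at least 2-fold lower and 0 higher (median -1.63, against -0.09 for all kept genes and 13.6% lower). On CfaAffx 7 of 13 were lower and 0 higher (median -1.19, against -0.49 and 28.3%). The medians under the other scalings lay between -1.32 and -1.55 on Cfa and between -0.71 and -1.33 on CfaAffx. At the control site 9 of 20 and 7 of 13 were lower, with medians of -0.97 and -1.09.

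CXCL8, the main neutrophil chemoattractant interleukin 8, lay on Cfa at 337, 257 and 20.8 array medians on days 4, 7 and 14 at the implanted site (-3.57). The control site had 513.5 on day 14 and 309 on day 7 (0.73). CXCL10, an interferon-induced chemokine for T cells, lay on Cfa at 3.73 on day 14 and 44.5 on day 7 (-3.27). CXCL10 differed by -2.67 at the control site. CCL20, which attracts cells bearing CCR6, was lower on both kinds (-1.76 on Cfa and -4.36 on CfaAffx), and so were the monocyte chemokine CCL8 (-2.42 and -1.98), the cytokine IL1B (-1.31 and -2.65) and the decoy receptor IL1R2 (-1.57 and -1.87). NFKBIA, the NF-kappa-B inhibitor that NF-kappa-B itself induces, stood at 21.8 and 164 (-2.86), and CCL4, a chemokine of activated macrophages, at 2.53 and 21.0 (-2.64).

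Not every member was low. On Cfa, CCL5 differed by 0.56, CCL19 by 0.58 and CSF2 by 0.64, and on CfaAffx CSF3 differed by 0.54 and CXCL12 by 0.38. CXCL12, which retains haematopoietic and progenitor cells, differed by -0.84 on Cfa.

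Neutrophil genes were read mostly on CfaAffx, where 6 of 10 kept members were lower and 1 higher (median -1.62, control -1.33). Of all kept genes on CfaAffx, 28.3% were lower. S100A8 and S100A9, the subunits of calprotectin, stood at 62.8 and 40.5 array medians on day 14 and at 516 and 445 on day 7 (-3.02 and -3.42). Control sites had the same direction, with -2.31 and -2.21. TREM1, an amplifier of myeloid inflammation, differed by -1.99, and LTF, lactoferrin, by -1.70. Other members lay above 0, LCN2 by 0.75 and FPR2 by 0.41. CAMP, described above, was the member higher on both kinds.

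**Figure D4:**
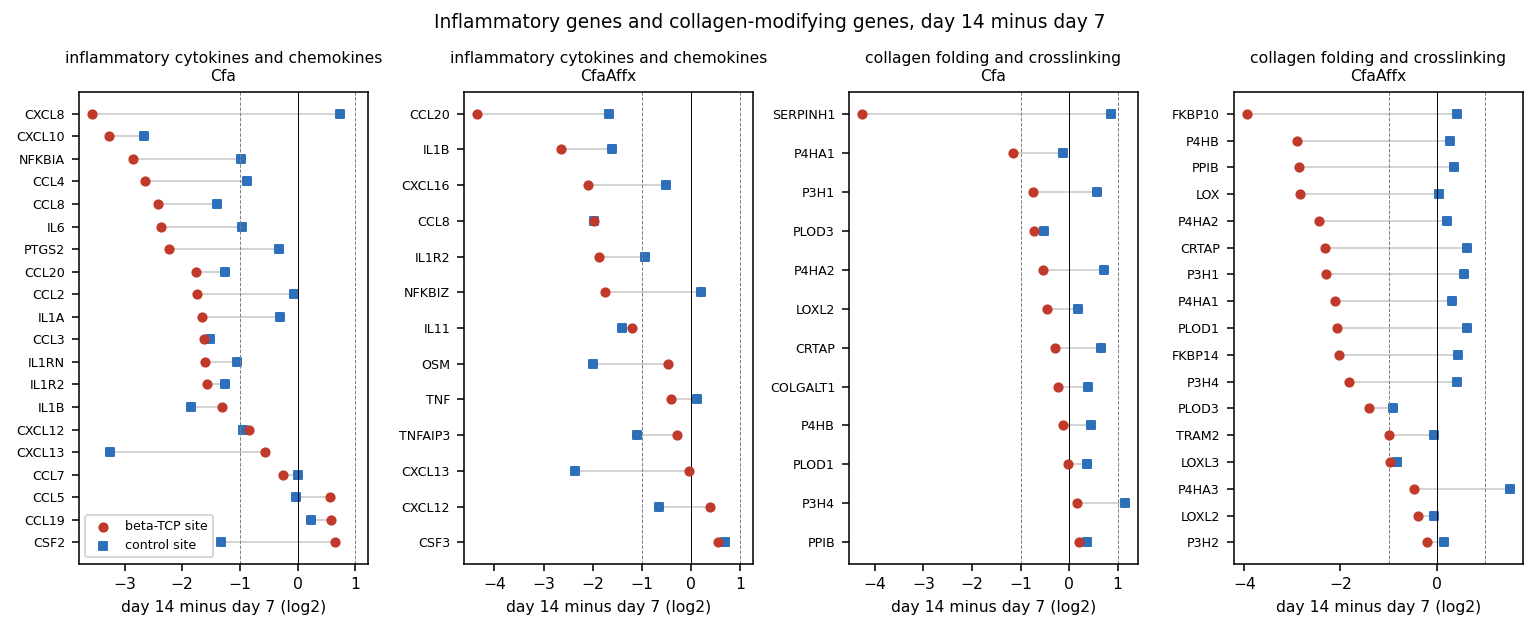
Difference between day 14 and day 7 (log2) of the kept inflammatory cytokine and chemokine genes and of the collagen folding and crosslinking genes, by kind of probe set. Red circles are the beta-TCP site, blue squares the control site, and dashed lines mark 2-fold. The cytokine genes lie mainly below 0 at both sites, while the collagen-modifying genes lie below 0 with beta-TCP and near or above 0 without.

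The same specimens differed in the summed level of neutrophil markers (S100A8, S100A9, MPO and CAMP, all 4 on the array and none at 0), which was 112 array medians on day 14 and 962 on day 7 at the implanted site, and 294 and 1411 at the control site. Nearly all of it was S100A8 and S100A9, whereas CAMP was higher on day 14 at the implanted site (8.26, against 0.962 on day 7). MPO (0.742 and 0.0525) was under the filter and lay below the array median on both days. Macrophage markers (CD68, CD163 and CSF1R) summed to 226 and 182 at the implanted site and to 122 and 383 at the control site. The higher day 14 sum at the implanted site was that of the Cfa probe set of CD68 (214 and 154); CD163 (11.4 and 20.8) and CSF1R (0.758 and 7.61) were lower, as was the CfaAffx probe set of CD68 (14.2 and 54.9). How far these sums account for the inflammatory genes was not tested. In whole cylinders of tissue, fewer cells of a type and less RNA per cell cannot be told apart.

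Macrophage genes were mixed. On Cfa 2 of 16 kept members were lower and 0 higher (median -0.33), near the 13.6% of all kept genes lower. On CfaAffx 8 of 14 were lower and 0 higher (median -1.42), against 28.3% of all kept genes lower. At the control site 5 were higher on CfaAffx (median 0.19). CD68, a lysosomal protein of macrophages and osteoclasts, stood at 214 array medians on day 14 and 154 on day 7 on Cfa (0.47) and at 14.2 and 54.9 on CfaAffx (-1.88), against -2.28 and -2.94 at the control site. CD163, the haemoglobin scavenger receptor, differed by -0.82 and -1.24, against 0.81 and 0.11. MRC1, the mannose receptor, was the member lower on both kinds (-1.02 and -2.36), against 1.16 and 0.48 at the control site. GPNMB, a glycoprotein of macrophages and osteoblasts, stood at 3.32 on day 14 and 57.0 on day 7 on CfaAffx (-3.75), against 38.7 and 8.97 at the control site (1.99). TREM2, a lipid-sensing receptor, differed by 0.92 on Cfa and 0.06 on CfaAffx, but 2 of its 4 probe sets lay below 0, the lowest at -2.72.

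Antigen presentation and interferon-induced genes were low on both kinds. On Cfa 9 of 16 kept members were lower and 0 higher (median -1.31), and on CfaAffx 15 of 21 were lower and 0 higher (median -1.37). All 11 members read on both kinds were below 0 on both, and 5 were at least 2-fold lower on both. The medians under the other scalings lay between -0.95 and -1.22 on Cfa and between -0.89 and -1.42 on CfaAffx. At the control site the medians were 0.14 on Cfa and -0.66 on CfaAffx, with 4 of 16 and 5 of 21 lower.

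ISG15, a ubiquitin-like modifier induced by interferon, lay at 12.6, 56.2 and 3.90 array medians on days 4, 7 and 14 (-3.54), against 32.7 on day 14 and 19.3 on day 7 at the control site (0.74). MX1, an interferon-induced antiviral GTPase, had the same course on CfaAffx, at 7.28, 40.2 and 1.89 (-3.83), against 30.0 and 8.98 at the control site (1.64). Both had thus been higher on day 7 than on day 4 before they were low on day 14. PSMB9, the interferon-induced catalytic subunit of the immunoproteasome, stood at 1.42 on day 14 and 43.3 on day 7 (-4.19), against 49.4 and 37.9. CD74, the invariant chain of MHC class II, differed by -2.75 on Cfa and -1.14 on CfaAffx, and IRF1, a transcription factor of the interferon response, by -1.97 and -2.36. B2M, the light chain of MHC class I, differed by -0.43 on Cfa, where it stood at 498 and 674, and by -2.50 on CfaAffx.

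Lymphocyte genes were few and low in level. Of T and natural killer cell genes, 1 of 7 on Cfa and 1 of 8 on CfaAffx were lower (medians -0.38 and, turned to 0.05 with the median of all genes subtracted, -0.44), and CD2, an adhesion receptor of T cells, differed by -1.01 and -0.64. The T cell markers CD3D, CD3E and CD2 summed to 8.95 array medians on day 14 and 14.3 on day 7. JCHAIN, the joining chain of secreted antibodies, stood at 2.63 and 43.8 on CfaAffx (-3.63) and at 1.21 and 1.24 on Cfa (-0.02), and it was lower at the control site as well (-2.70 and -1.18).

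Vessel genes parted by the kind of probe set, as all kept genes did. On Cfa 1 of 11 kept endothelial members was higher and 1 lower (median 0.30, control -0.38). On CfaAffx 1 of 18 was higher and 6 lower (median -0.66, control -0.31). Among all kept genes 13.6% were lower on Cfa and 28.3% on CfaAffx, with medians of -0.09 and -0.49. The CfaAffx values of the vessel list lay near these. FLT1, a VEGF receptor, stood on Cfa at 15.7 array medians on day 14 and 6.43 on day 7 (1.16). CDH5, the cadherin of endothelial junctions, stood at 2.58 and 0.763 on CfaAffx (1.02). VWF, von Willebrand factor, differed by 0.53 on Cfa, against -0.62 at the control site. PECAM1, an adhesion molecule of endothelium, differed by 0.55 on Cfa and -1.52 on CfaAffx, and ENG, the TGF-beta co-receptor endoglin, by 0.87 and -2.38. SELE, the E-selectin that cytokines induce on endothelium, differed by -1.64 on Cfa and -0.19 on CfaAffx.

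Of contractile and pericyte genes, 1 of 13 was higher and 2 lower on Cfa (median -0.07, above 0 under the 4 other scalings). On CfaAffx 1 of 10 was higher and 4 lower (median -0.86). The lower shares of all kept genes were 13.6% on Cfa, near the count of this list, and 28.3% on CfaAffx. ACTA2, the smooth muscle actin of myofibroblasts and pericytes, lay at 182, 299.5 and 674 array medians on days 4, 7 and 14 on CfaAffx (1.17), against 347 on day 14 and 269 on day 7 at the control site (0.37). TAGLN, an actin-binding protein of the same cells, stood at 291 and 113 on Cfa (1.35) but at 8.34 and 16.4 on CfaAffx (-0.89). CALD1, caldesmon, differed by -0.69 and -3.83, and TPM1, a tropomyosin, by 0.35 and -3.10. PDGFRB, the PDGF receptor of pericytes, differed by -1.38 on Cfa and 0.02 on CfaAffx.

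Growth factors gave 6 of 17 lower and 0 higher on Cfa (median -0.42) and 8 of 21 lower and 1 higher on CfaAffx (median -0.47, close to that of all kept genes). The Cfa median was 0.0004 with quantile normalization, and the CfaAffx median 0.02 with the median of all genes subtracted. On Cfa FGF2, a mitogen of mesenchymal and endothelial cells, differed by -1.81, FGF7 by -1.76 and PDGFD by -1.73. PTN, pleiotrophin, a heparin-binding growth factor of bone and cartilage, stood at 186 array medians on day 14 and 182 on day 7 on Cfa (0.04) and at 92.5 and 319 on CfaAffx (-1.78), against 2.34 and 2.26 at the control site. TGFBI, a TGF-beta-induced adhesion protein, differed by -3.49 on CfaAffx. TGFBR3, the TGF-beta co-receptor betaglycan, differed by 1.15 on CfaAffx and -0.57 on Cfa.

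Of insulin-like growth factor genes, 1 of 8 was higher on Cfa, IGFBP7 (995 array medians on day 14 and 450.2 on day 7, 1.14), and 5 of 8 were lower on CfaAffx, IGFBP7 among them (-1.47). IGFBP2, a binding protein of bone, stood at 1.47 and 7.75 on CfaAffx (-1.83), against 5.41 and 0.151 at the control site (2.48). IGF1 differed by -0.28 at the implanted site and 1.07 at the control site.

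Complement and coagulation genes included C3, the central complement component, which was higher on Cfa at 8.37 array medians on day 14 and 2.95 on day 7 (1.25), against -0.42 at the control site. Of this list 4 of 17 on Cfa and 7 of 13 on CfaAffx were lower (medians -0.38, turned to 0.01 with the 90th percentile, and -1.30). CFD, the factor D that starts the alternative pathway and that adipocytes secrete, stood on Cfa at 18.3 and 80.9 (-2.09), against 0.02 at the control site. PPBP, a platelet chemokine, differed by -1.08 on Cfa and -3.69 on CfaAffx. Of lipid and adipocyte genes 3 of 9 were lower and 1 higher on Cfa, and 2 of 6 lower and 0 higher on CfaAffx. The medians were -0.21, turned to 0.07 with the 90th percentile, and -0.85. Beside the counts of both lists stand the 13.6% of all kept genes lower on Cfa and the 28.3% lower on CfaAffx. DGAT2, which makes triglyceride, was lower on both kinds at the implanted site (-1.94 and -1.14) and at the control site (-1.98 and -1.19). CD36, a fatty acid receptor, differed by -2.14 on CfaAffx, against 1.67 at the control site. FABP4, the fatty acid carrier of adipocytes, stood at 27.4 array medians on day 14 and 26.8 on day 7 with beta-TCP (0.03) and at 46.1 and 1.68 without (4.14).

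Genes of cell division were lower or within 2-fold. On Cfa 4 of 17 kept members were lower and 0 higher (median -0.39, control 0.02), against 13.6% of all kept genes lower. On CfaAffx 9 of 26 were lower and 0 higher (median -0.81, control -0.05), near the 28.3% of all kept genes. CDK1, the kinase that drives entry into mitosis, lay at 26.0, 13.5 and 4.95 array medians on days 4, 7 and 14 on Cfa (-1.29) and at 14.0, 5.64 and 0.871 on CfaAffx (-1.83). CDK1 differed by 0.28 and -0.14 without beta-TCP. MCM4, a subunit of the replicative helicase, was also lower on both kinds (-1.12 and -1.61), and PCNA, the replication clamp, differed by -0.19 and -2.49.

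The secretory pathway, which includes the translocon, signal peptidase and coat proteins through which matrix proteins leave the cell, had 3 of 35 members lower and 0 higher on Cfa (median -0.51) and 16 of 22 lower and 0 higher on CfaAffx (median -1.47). The Cfa count lay under the 13.6% of all kept genes lower on Cfa, and on CfaAffx 28.3% of all kept genes were lower. Below 0 were 26 of 35 on Cfa and 21 of 22 on CfaAffx. At the control site 6 of 35 on Cfa were below 0, and the medians were 0.35 and 0.28. SEC24D, a coat protein of vesicles that carry procollagen, was the member lower on both kinds (-1.20 and -1.78). SEC23A, its partner, differed by -1.20 and -0.99, against 1.72 and 0.35 at the control site. HSPA5, the chaperone BiP, stood at 315 array medians on day 14 and 355 on day 7 on Cfa (-0.17) and at 7.89 and 114 on CfaAffx (-3.69).

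Lysosomal genes had 2 of 22 lower and 0 higher on Cfa (median -0.24, turned to 0.11 with the 90th percentile). On CfaAffx 15 of 22 were lower and 0 higher (median -1.85), and no member was at least 2-fold lower on both. The lower shares of all kept genes were 13.6% on Cfa and 28.3% on CfaAffx. The lysosomal count on Cfa lay under its share. The glycolysis count on Cfa and both immediate early counts, given next, lay near theirs. CTSS, cathepsin S of antigen-presenting cells, differed by -0.40 on Cfa and -3.95 on CfaAffx, and ATP6V1H, a regulatory subunit of the V-ATPase, by -2.88 and -0.91. Glycolysis and hypoxia genes had 3 of 20 lower and 0 higher on Cfa (median -0.04, above 0 under the 4 other scalings) and 9 of 22 lower and 1 higher on CfaAffx (median -0.51). P4HA1 and PKM, the muscle-type pyruvate kinase (-1.43 and -1.06), were lower on both kinds. Immediate early genes had 2 of 12 lower and 1 higher on Cfa (median -0.45) and 6 of 17 lower and 1 higher on CfaAffx (median -0.52); KLF6, a transcription factor of the early wound response, was lower on both (-2.48 and -1.93) and NR4A1 higher on both.

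Respiratory chain genes showed how far the kinds of probe set could part, whereas the ribosomal protein medians lay near 0 on both kinds. Of respiratory chain subunits, 6 of 25 were higher and 2 lower on Cfa (median 0.34), and 0 of 15 higher and 7 lower on CfaAffx (median -0.98). NDUFB10, a subunit of complex I, stood at 238 array medians on day 14 and 89.7 on day 7 on Cfa (1.40) and at 8.42 and 21.8 on CfaAffx (-1.27). ATP5F1B, the catalytic subunit of ATP synthase, differed by 1.12 and -1.08. Cytosolic ribosomal proteins had 5 of 20 higher and 2 lower on Cfa (median 0.11) and 2 of 9 higher and 1 lower on CfaAffx (median 0.01), and both medians were below 0 with quantile normalization (-0.21 and -0.20). RPL32, at 2795 the brightest reading of the day 14 array, differed by 1.96, RPL19 by 1.62, and RPLP0 by -2.29 on CfaAffx.

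Common reference genes spanned a wide range. On Cfa 2 of 15 were lower and 1 higher (median -0.18, turned to 0.19 with the 90th percentile), and on CfaAffx 6 of 8 were lower and 1 higher (median -2.26), against control medians of 0.30 and -0.15. HPRT1 and YWHAZ, a 14-3-3 protein (-1.28 and -2.88), were lower on both kinds. GAPDH, a glycolytic enzyme read here under 2 array medians, differed by 1.31 on CfaAffx.

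**Figure D5:**
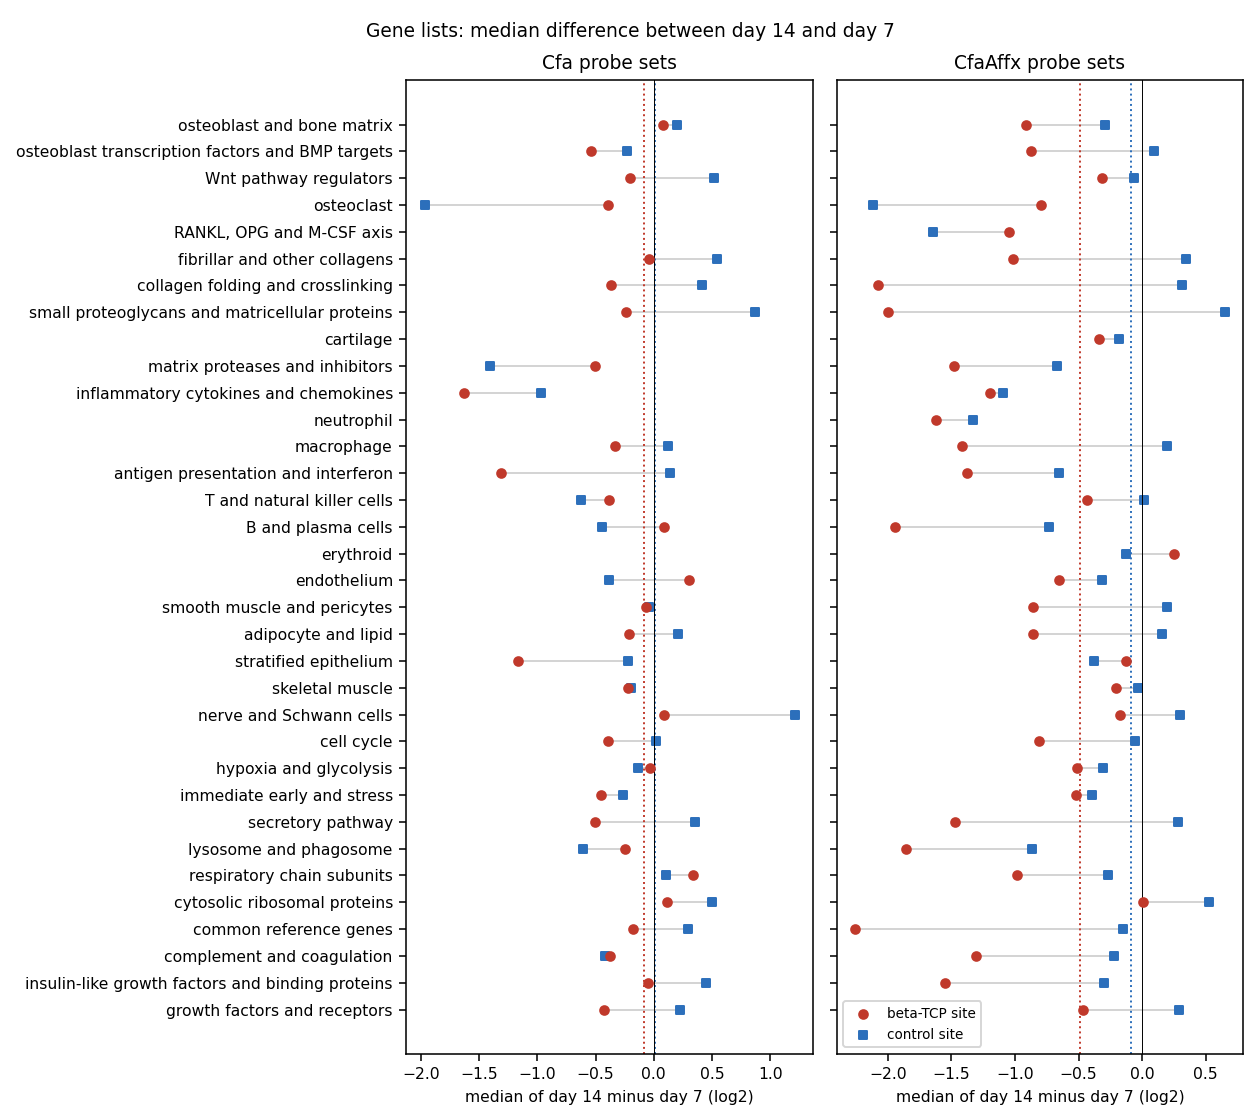
Median difference between day 14 and day 7 (log2) of the kept members of 34 gene lists, on Cfa (left) and CfaAffx (right) probe sets. Red circles are the beta-TCP site, blue squares the control site, and dotted lines the medians of all kept genes at each site. Inflammatory and antigen presentation genes lie to the left of the beta-TCP line on both panels, and collagen folding and secretory genes lie to the left of it with beta-TCP and above 0 without.

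A few genes had large differences on 1 kind of probe set only. Genes with only an identifier are passed over here. On Cfa the highest named genes were CRYM, a thyroid hormone-binding crystallin, at 17.2 array medians on day 14 and 1.33 on day 7 (2.97), and FBXO39 (2.73), neither of them kept on CfaAffx. ATXN7L3 (2.37) and UBXN1 (2.29) differed by 0.27 and -0.37 on CfaAffx. The lowest on Cfa after DLA88 and SLPI were SRGN, the proteoglycan of leukocyte granules, at 2.0 on day 14 and 86.8 on day 7 (-4.87), and EIF3E, a translation initiation factor (-4.34 on Cfa, -0.85 on CfaAffx). On CfaAffx MSN, the membrane linker moesin, stood at 108 and 7.11 (3.74), but its other 2 probe sets differed by -1.59 and -1.48. ART5 (2.37), MICAL2 (2.17) and DMTN (2.02) followed, and SLC37A2, a sugar phosphate transporter of the endoplasmic reticulum, was among the lowest there (-4.09).

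Markers of the labelled tissue were present. Of 9 bone and osteoblast markers 8 had a probe set, all above the array median on both days, with sums of 6208 array medians on day 14 and 3286 on day 7. The higher day 14 sum was that of COL1A1, COL1A2 and SPARC on Cfa, whose differences were 0 or below with quantile normalization. The other 5 markers were lower on day 14: ALPL (26.9 and 40.2), IBSP (38.7 and 251), SPP1 (154 and 589), BGLAP (3.03 and 4.95) and RUNX2 (1.29 and 2.02). Osteocyte markers summed to 14.8 and 16.1, against 1.43 and 3.71 at the control site, with DMP1 and SOST below the array median on day 14. Osteoclast markers summed to 1421 and 1041, against 757 and 2045. The higher day 14 sum with beta-TCP was that of the Cfa probe set of CTSK (1035 and 603, against 23.1 and 261 on CfaAffx). ACP5 (-0.07) and MMP9 (-0.28) were within 2-fold on Cfa, while the CfaAffx probe set of ACP5 differed by -3.87. CALCR was under the filter and lay below the array median on both days. The markers of stratified epithelium, of which 4 of 6 were on the array, summed to 2.23 on day 14 and 1.98 on day 7. Below the array median were 3 of these 4 on day 14 and all 4 on day 7. Those of skeletal muscle summed to 6.39 and 7.40, with 3 of 4 below the array median on each day. Sums this low do not show whether either tissue differed between the days. B and plasma cell markers summed to 2.82 and 43.9, nearly all of it JCHAIN, and adipocyte markers to 29.0 and 29.4, nearly all of it FABP4. Erythroid markers rested on ALAS2 (3.85 and 1.43) and nerve markers on S100B and SOX10 (sums of 2.27 and 1.18).

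The wider lists for other tissues had few kept members. Stratified epithelium genes gave 4 of 7 lower on Cfa and 1 of 14 on CfaAffx (medians -1.17 and -0.13), with S100A14 lower on both kinds and PERP, a desmosomal membrane protein, at -2.54 and 0.32. Nerve and Schwann cell genes gave 2 of 6 lower on each kind (medians 0.09 and -0.17), among them GAP43, a growth cone protein (-1.79 and -1.12). Skeletal muscle genes gave 0 of 5 and 1 of 6 lower (medians -0.23 and -0.21). Erythroid genes gave 0 of 1 and 1 of 4 lower, and B and plasma cell genes 0 of 4 and 2 of 3 lower (medians 0.08 and -1.95). None of these 5 lists had a kept member at least 2-fold higher on either kind. The CfaAffx medians of epithelium, muscle and nerve genes lay above 0 under at least 1 of the 4 other scalings, as the Cfa median of B and plasma cell genes lay below 0 under 1.

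The implanted and the control site were set side by side over the same days. Across genes, the beta-TCP and the control difference between day 14 and day 7 had a Pearson correlation of 0.132 on Cfa and 0.186 on CfaAffx, with no array in common. Genes lower at both sites numbered 103 on Cfa, which were 12.7% of those lower with beta-TCP and 29.4% of those lower without. On CfaAffx they numbered 282 (12% and 48.9%). The shares to set beside these are those of all kept genes. On Cfa 5.84% were lower without beta-TCP and 13.6% with it, and on CfaAffx 6.96% and 28.3%. At the control site 2.64% of the 3748 genes read on both kinds were at least 2-fold lower on both. Of the 246 genes lower on both kinds with beta-TCP, 23 were among these. The 23 included SLPI, S100A14, SOD2, SORL1, GK, CCL8, CCL20, IL1B, IRF1, MMP13 and DGAT2. A control difference above 0 on both kinds was found for 77 of the 246, and below 0 for 111. Of all 3748 genes read on both kinds, 2424 had a control difference of the same sign on both, and 1414 of these lay below 0. Only 9 genes were higher on both kinds with beta-TCP, and 0 of these were 2-fold lower on both at the control site. With so few genes and a share of 2.64%, this count carries no information.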

How the data were processed

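The deposited series table holds 42860 probe sets on 6 arrays. The authors deposited days 4 and 7 as a ratio of each signal to its array's median (medians of 1.0), and day 14 as intensity without that division (medians of 6.2 with beta-TCP and 12 without). These units were read from the values, and the software, algorithm and scaling were not given in the sources used here. No column was left without a sample. Arrays limit precision by their number, here 1 per group, and the files hold no detection calls.

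Each array was divided by its median, and log2(value + 1) was taken, which understates differences of weakly expressed genes. By the platform annotation 29254 probe sets had 1 gene, 439 several and 13167 none; 27680 matched the RefSeq table of UU_Cfam_GSD_1.0 by gene ID, used for names only. Probe sets named alike except for the endings _a_at and _at (90 pairs) were left out. Per gene and kind, the probe set with the highest 6-array mean was used if the mean reached the 40th percentile. Day 14 minus day 7 was counted at 2-fold, with no test. Of 15112 genes with a probe set, 10530 were kept. No sequence is printed.

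The comparison, the 34 gene lists and the named genes were chosen with earlier results of these data known. Named are the 12 highest and 12 lowest genes read on both kinds with the same sign (by the smaller difference), the 5 highest and 5 lowest on each kind, up to 4 leading members of each list in each direction, and 24 fixed markers, of which SP7 and MKI67 were not kept. Genes with only an identifier were passed over. CDH11, IL1R2, IRF1, LTF, POSTN and THBS2, and the genes of the closing section, were named after their values were seen. In all, 14 alternatives were run. The counting was tested on simulated data. Python 3.11.15, pandas 2.3.3 and numpy 2.4.6 were used.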

Additional observations from a re-analysis of the deposited data

Results flagged for a closer look

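For 6 genes both kinds of probe set were at least 2-fold lower on day 14 than on day 7 at the beta-TCP site and at least 2-fold higher at the control site. With 1 array per group the difference between the sites was not tested, and these genes are the ones that met both conditions among 3748. Of all 3748 genes, 6.56% were at least 2-fold lower on both kinds with beta-TCP. At the control site 1.09% were at least 2-fold higher on both. Whether 6 genes is more than these shares would give was not tested.

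MFAP5, a microfibril glycoprotein, differed by -2.35 on Cfa and -2.0 on CfaAffx with beta-TCP, against 2.17 and 1.09 at the control site. SFRP2, the Wnt inhibitor, differed by -1.19 and -1.21, against 2.19 and 2.62. RCN1, a calcium-binding protein of the endoplasmic reticulum, differed by -1.58 and -1.97, against 1.54 and 1.43. TMEM100, a membrane protein induced by BMP signalling in endothelium, differed by -2.40 and -1.42, against 1.57 and 1.22.

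CHSY3, an enzyme of chondroitin sulfate synthesis, differed by -1.17 on Cfa and -1.41 on CfaAffx with beta-TCP, against 1.94 and 1.03 at the control site. COL5A1 differed by -1.01 and -3.69, against 1.01 and 1.03, and so lay close to 2-fold on 3 of its 4 values.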

How the results depend on the processing

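No paired analysis was possible because each group holds 1 array, and no replicate could be left out for the same reason. Counts are given as lower and higher genes. With the median of each kind subtracted, CfaAffx gave 1134 and 908 and both kinds together 129 and 25. Quantile normalization gave 531 and 758 on Cfa, 481 higher on CfaAffx, and 147 and 20 on both; it put COL1A2 at -0.20 and SPARC at -0.24 on Cfa and RPS20 at -0.12 on CfaAffx, each above 1 in the values reported. Division by the 90th percentile gave 485 and 836 on Cfa, 517 higher on CfaAffx, and 120 and 22 on both. With the kinds scaled apart, Cfa gave 503 lower and CfaAffx 532 higher. As deposited, with days on different scales, the counts were 65 and 5326 on Cfa, 282 and 5624 on CfaAffx and 7 and 1994 on both; this was run for the counts only. A pseudocount of 0.25 gave 588 higher on CfaAffx and 18 higher on both, a pseudocount of 4 gave 379 and 139 on Cfa, 895 and 34 on CfaAffx and 83 and 4 on both, and a pseudocount of 16 gave 100 and 66, 182 and 18, and 15 and 1. Without the filter, 484 were higher on CfaAffx and 15 on both, and the list medians of neutrophil genes on Cfa (-0.0031) and of B and plasma cell genes on CfaAffx (0.0753) changed sign. The 60th percentile gave 96 higher on CfaAffx and 5 on both, and a filter on the 2 beta-TCP arrays 14 higher on both. The mean of all probe sets of a gene gave 194 higher on Cfa, 143 on CfaAffx and 4 on both, and put COL1A1 at -0.07. At 4-fold the counts were 127 and 10 on Cfa, 463 and 5 on CfaAffx and 15 and 0 on both. Keeping the pairs of probe sets moved no count by over 1.5 times. Scaling moved the sign of the median for up to 11 lists on Cfa (90th percentile) and 7 on CfaAffx (medians subtracted). The cause of these shifts was not tested, except that the pseudocount and the fold set the counts by their construction.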
